A study of Homo sapiens with 12 samples.

Results

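Histone deacetylase genes were followed in the RNA of HEL cells, an established human acute myeloid leukemia (AML) line with erythroid features. Untreated cells (NT), a separate arm and not an earlier time point, were compared with cultures regrown after chemotherapy. The 10 genes were HDAC1 to HDAC9 and HDAC11, found by symbol among 26481 genes with a count in every library, and all 10 were among the 14164 genes that passed the filter on low counts. The set was chosen by HDAC9, selected on its measured counts in NT and relapse libraries, so its levels are described with no test and counts of called genes are over the other 9. The 12 libraries came from cells carrying DNA barcodes, in 4 groups. The NT cells (n = 2) received 0.1 µM DMSO. The Doxo relapses (n = 3) came from 1.8 µM doxorubicin, the Doxo+Cyta relapses (n = 3) from the same dose with 6 µM cytarabine, and the Doxo+Cyta+DAC relapses (n = 4) from both drugs with 0.1 µM decitabine, a hypomethylating agent. Drugs were left on for 72 to 74 h, live cells were then enriched, and a relapse was the culture that had regrown to the number of cells seeded, after about 30 days. All groups are 1 cell line grown in vitro, and a relapse differed from NT in drug exposure and in regrowth at once, which cannot be told apart. The labels speak of biological replicates but tie no library to a culture date or batch, so p-values measure the spread between these libraries.

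Histone deacetylases remove acetyl groups from lysines of histones and other proteins, and deacetylated chromatin is generally less transcribed. HDAC1, HDAC2, HDAC3 and HDAC8 form class I, the nuclear enzymes that work mostly inside corepressor complexes. HDAC4, HDAC5, HDAC7 and HDAC9 form class IIa, proteins with weak catalytic activity of their own that bind transcription factors of the MEF2 family and shuttle out of the nucleus when kinases phosphorylate them and 14-3-3 proteins hold them. HDAC6, of class IIb, acts mainly in the cytoplasm on substrates such as tubulin, and HDAC11 is the sole class IV enzyme. In blood, class I enzymes work with lineage factors, and inhibitors of the family are used against some lymphoid cancers.

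The promoter sequences of HDAC9 are shown because this gene nearly lost its RNA in the relapses, beside that of HDAC7, a relative of the same class that stayed well expressed. Each window runs 5′ to 3′ from 250 bases before to 50 after a start site of RefSeq (GRCh38.p14), and capitals mark each CG pair. The distal HDAC9 window lies at chr7:18086575-18086874 (+), just upstream of the first exon counted in the deposited table. The internal one printed lies at chr7:18495499-18495798 (+), inside the gene, and the HDAC7 window at chr12:47819854-47820153 (−). Further internal HDAC9 windows begin at 18495460, 18496012 and 18509020 and are not printed.
HDAC9 distal start: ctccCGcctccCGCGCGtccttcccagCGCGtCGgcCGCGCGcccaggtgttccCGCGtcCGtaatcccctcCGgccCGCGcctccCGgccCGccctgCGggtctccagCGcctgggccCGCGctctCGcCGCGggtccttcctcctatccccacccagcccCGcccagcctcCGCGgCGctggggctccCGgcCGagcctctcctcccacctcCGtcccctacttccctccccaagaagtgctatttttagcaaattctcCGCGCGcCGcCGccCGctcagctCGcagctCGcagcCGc
HDAC9 internal start: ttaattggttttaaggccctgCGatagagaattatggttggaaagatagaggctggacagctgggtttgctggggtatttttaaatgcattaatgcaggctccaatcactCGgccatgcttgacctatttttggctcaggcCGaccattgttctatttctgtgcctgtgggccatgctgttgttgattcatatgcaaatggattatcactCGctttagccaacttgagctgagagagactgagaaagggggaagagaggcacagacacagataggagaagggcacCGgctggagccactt
HDAC7 start: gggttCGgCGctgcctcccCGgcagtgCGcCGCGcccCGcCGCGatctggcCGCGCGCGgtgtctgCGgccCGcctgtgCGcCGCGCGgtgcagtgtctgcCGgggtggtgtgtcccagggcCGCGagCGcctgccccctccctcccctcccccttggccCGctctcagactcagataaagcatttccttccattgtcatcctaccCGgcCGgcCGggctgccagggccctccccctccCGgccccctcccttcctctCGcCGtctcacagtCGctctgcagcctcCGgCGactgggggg
The distal HDAC9 window held 41 CG pairs, more than 93.3% of the 35116 RefSeq windows of the same length, whose median was 14. The internal window printed held 5 and the HDAC7 window 33, and the internal HDAC9 windows not printed held 5 or 0. The MEF2 consensus motif allows adenine or thymine at each of its central bases. A match to it, the sequence CTATTTTTAG, began 8 bases before the distal HDAC9 start site. Any match to the motif, searched on both strands, occurred in 0.572% of all windows and in 1 of the 19 windows of the member genes. The share of windows with CTATTTTTAG itself was not counted. Windows were at hand for 9 of the 10 genes, all but HDAC5. These letters are a description of the sequence only, and DNA methylation was not analysed here. The deposited counts are per gene and do not separate the start sites.

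Library totals lay between 12763582 and 19106235 counts, and 3 counts in a library, taken as the lowest level it could show, equalled 0.154 to 0.238 counts-per-million (CPM). This limit covers counting error only. CPM are scaled for library composition by the TMM method. No 2 libraries of a group were duplicates. Doxo replicate 4 and Doxo+Cyta replicate 20 stood apart from their group-mates, with 25.5 to 27.8 and 43.7 to 45.3 chi-square units per gene against 2.97 and 6.93 for the other pair of each group. Erythroid and megakaryocyte genes were expressed throughout, among them the lineage factor GATA1 and the platelet integrin ITGA2B, whereas PF4 reached 0.140 CPM at most and GP1BB had no count. The summed level of 8 erythroid genes spanned 6250 to 7521 CPM in NT, 7380 to 8462 in Doxo, 8020 to 9180 in Doxo+Cyta and 4821 to 7186 in Doxo+Cyta+DAC. Over 6 megakaryocyte genes the sums were 1840 to 1908, 1677 to 1985, 1685 to 2137 and 1098 to 1364 CPM. Of lymphoid markers, MS4A1 was at 0 and CD3E and CD3D at most 0.158 CPM, while CD2 lay at 19.9 to 55.7 CPM and CD79A at 0.894 to 6.00. Sums were 27.9 to 49.8 CPM over 4 monocyte genes, mostly LYZ, and 0.596 to 2.02 over 6 fibroblast or epithelial genes.

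HDAC9 (chromosome 7, 18086949 to 18997369, + strand, GRCh38) was far lower in every relapse than in NT. NT replicates 1 and 2 held 381 and 399 counts of it, or 19.6 and 23.8 CPM. Doxo replicates 4, 5 and 6 held 0, 2 and 15 counts, the last equal to 0.947 CPM. Doxo+Cyta replicates 19, 20 and 22 held 2, 10 and 27 counts, the highest being 1.65 CPM. In Doxo+Cyta+DAC, replicates 30, 31 and 33 had no count and replicate 32 had 3. So all 10 relapse libraries lay below both NT libraries, and the relapses with decitabine were at or under the 3-count limit in each library. In bulk RNA, fewer cells with HDAC9 transcripts and fewer transcripts per cell cannot be told apart.

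The mean HDAC9 level was 21.7 ± 2.95 CPM (SD, n = 2) in NT, 0.354 ± 0.516 (n = 3) in Doxo and 0.814 ± 0.774 (n = 3) in Doxo+Cyta. These means stand 61.2 times and 26.6 times below NT. The spread inside both relapse groups was as large as their means. Without Doxo replicate 6 the Doxo mean was 0.0582 CPM, and without Doxo+Cyta replicate 22 that group's mean was 0.395 CPM, so those single libraries supplied most of what remained. With decitabine, the 3 counts over 4 libraries gave a ratio of NT to relapse of 449, with an exact 95% interval of 153 to 2181 that covers counting error in these libraries only. The Doxo and Doxo+Cyta libraries overlapped in HDAC9 level, and the lowest of each also overlapped those with decitabine.

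Among 10334 genes with at least 5 CPM in both NT libraries, ranked by the lowest NT level over the highest relapse level, HDAC9 came first, at a ratio of 11.9. HDAC9 was selected on these same NT and relapse counts, and the ranking was chosen after its values were seen. Its place is therefore a description and adds no support. The 5 tested genes whose log2 CPM followed HDAC9 most closely over the 12 libraries were TTC13 (Pearson r = 0.91), TBX4 (0.90), CSTF3-AS1 (0.89), PRR5L (0.89) and MPZL1 (0.89). Counting without strand cannot part CSTF3-AS1, an antisense RNA, from CSTF3. The libraries are shared between all of these values and fall into 4 groups, mostly NT against the rest, so the coefficients carry no p. Of these, TBX4, a T-box transcription factor, was at 2.01 to 2.32 CPM in NT and at 0.138 to 0.856 in the relapses. TTC13 and MPZL1 moved far less, MPZL1 from 57.2 to 59.6 CPM in NT to 37.3 to 54.6 in the relapses. Among the other histone deacetylase genes the coefficient with HDAC9 ran from −0.78 for HDAC1 to 0.75 for HDAC7.

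**Figure D1:**
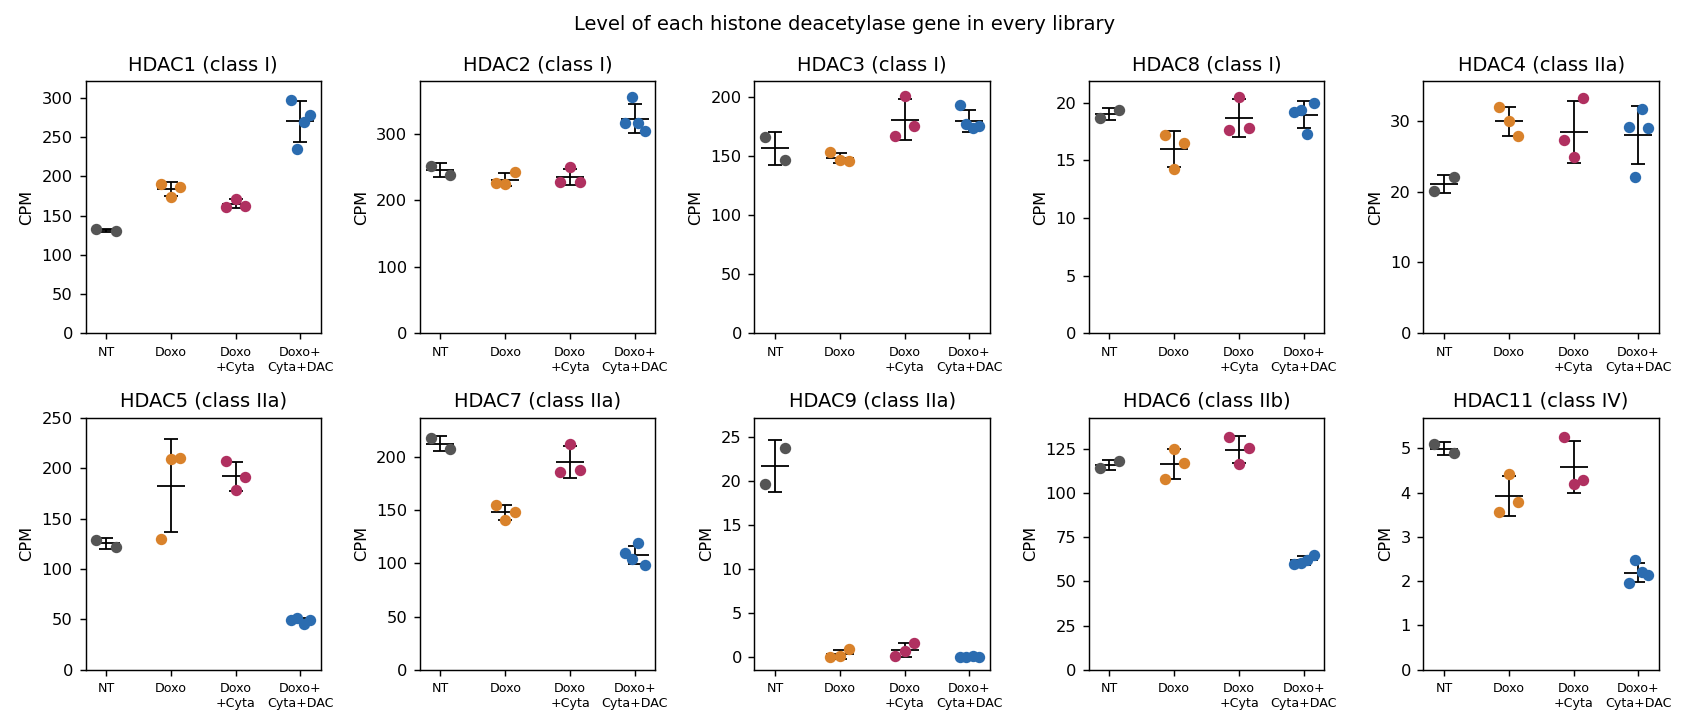
CPM of the 10 histone deacetylase genes in each library (points) of the 4 groups on the x axis, with the mean and SD as black bars and linear y axes that differ between panels. HDAC9 is at 19.6 and 23.8 CPM in NT and at 1.65 CPM or less in all 10 relapses, whereas HDAC5, HDAC6, HDAC7 and HDAC11 are lowest in the 4 Doxo+Cyta+DAC libraries and HDAC1 is highest there.

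No tested neighbour of HDAC9 on chromosome 7 was lowered to a like degree. Of 30 genes in the table within 2 megabases of either end, 10 were tested. SNX13, a sorting nexin and the nearest expressed gene before HDAC9, stood at 21.6 and 23.0 CPM in the NT libraries and at 11.4 to 26.3 CPM in the relapses. TWIST1 and FERD3L, the next genes after it, had no count in any library. TWISTNB, a subunit of RNA polymerase I and the nearest expressed gene after HDAC9, rose in Doxo+Cyta+DAC to 44.4 ± 2.16 CPM (SD, n = 4) from 26.7 ± 2.65 in NT (log2 fold change 0.73, SE 0.13, edgeR adjusted p = 0.000393).

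In Doxo+Cyta+DAC relative to NT, 2 of the 10 tested neighbours rose and 4 fell, beside 24.9% and 23.7% of all tested genes. BZW2, a regulator of translation start, also rose (0.36 ± 0.12, log2 fold change ± SE). SOSTDC1, a secreted antagonist of BMP signalling, fell by 2.15 on the log2 scale (SE 0.27), ISPD, an enzyme of dystroglycan glycosylation, by 0.52 and SNX13 by 0.61. ISPD-AS1, which lies inside ISPD on the other strand, fell by 0.96, and since strand was not used in counting its reads cannot be told apart from those of ISPD. ISPD-AS1 lay at 1.46 to 3.20 CPM in the relapse libraries, against 4.27 and 4.65 in NT. SOSTDC1 lay at 0.892 to 6.00 CPM in the relapses, against 6.08 and 7.00 in NT, so its highest relapse library nearly reached NT. How many of all tested genes lay below NT in every relapse was not counted. With either NT library left out, 2 of the 10 were called. In Doxo relative to NT 2 passed, AHR, the aryl hydrocarbon receptor, upward (1.00 ± 0.28) and ISPD-AS1 downward (−1.22 ± 0.31), and none did without NT replicate 1, NT replicate 2 or Doxo replicate 5, and 1 without Doxo replicate 6. None passed in Doxo+Cyta relative to NT in edgeR, whereas DESeq2 called 1. In the main fit 10.7% of all tested genes were called in Doxo and 1.46% in Doxo+Cyta, both relative to NT. No such share was counted under the alternatives.

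**Figure D2:**
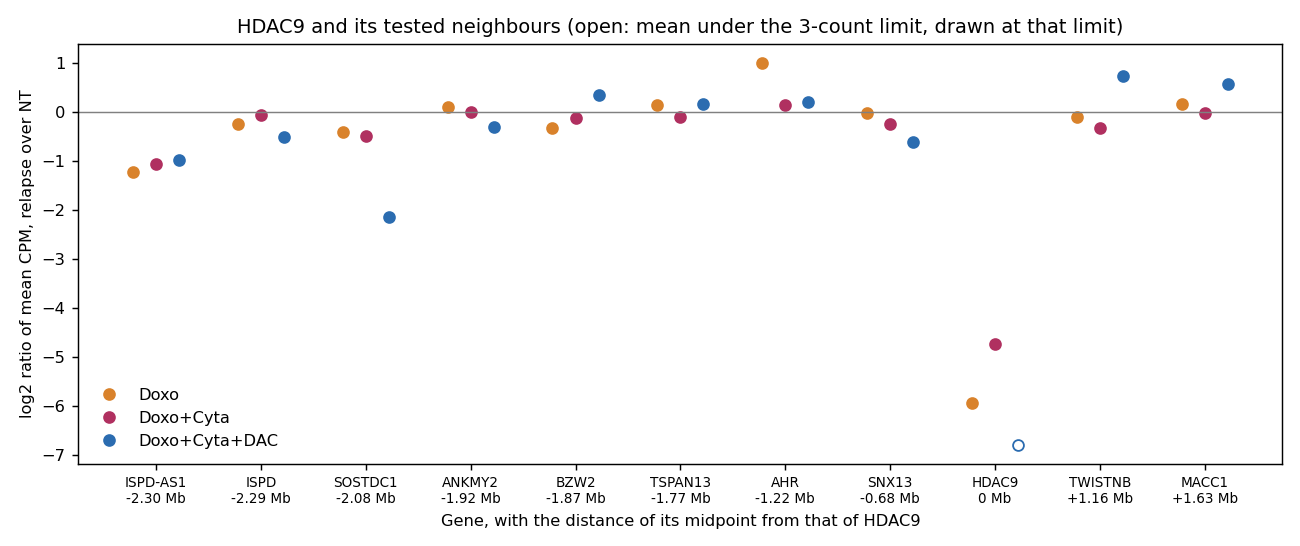
Log2 ratio of the mean CPM of each relapse group (colours) to NT for HDAC9 and its 10 tested neighbours, in chromosome order on the x axis with the distance between midpoints in megabases. HDAC9 lies near −5.93 on this scale in Doxo and −4.74 in Doxo+Cyta, its open Doxo+Cyta+DAC point is drawn at the 3-count limit, and every neighbour lies well above these values.

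The class I genes moved upward or not at all in the relapses with decitabine. HDAC1 (chromosome 1, 32292107 to 32333623, +), the core deacetylase of the NuRD, Sin3 and CoREST complexes, was at 132 and 129.7 CPM in NT. It was at 191, 174 and 186 CPM in Doxo replicates 4 to 6, at 161, 172 and 162 in Doxo+Cyta replicates 19, 20 and 22, and at 298, 235, 269 and 278 in Doxo+Cyta+DAC replicates 30 to 33. No library of one group reached another's range, so the order from low to high was NT, Doxo+Cyta, Doxo and Doxo+Cyta+DAC, of which Doxo+Cyta and Doxo were not told apart by the test (adjusted p = 0.414). HDAC1 rose 2.06-fold in Doxo+Cyta+DAC relative to NT (log2 fold change 1.04, SE 0.11, edgeR adjusted p = 9.50e-06) and 1.64-fold relative to Doxo+Cyta (adjusted p = 2.08e-05). It also rose in Doxo relative to NT (0.49 ± 0.11, edgeR adjusted p = 0.0167), while the change in Doxo+Cyta, 0.33 ± 0.11, had an adjusted p of 0.129. The call in Doxo was lost when NT replicate 1, NT replicate 2, Doxo replicate 5 or Doxo replicate 6 was left out, with adjusted p of 0.0519 to 0.156.

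HDAC2 (chromosome 6, 113936156 to 113971195, −), the close paralog of HDAC1 in the same complexes, passed in each of the 3 comparisons with decitabine and in no other. It was at 252 and 237 CPM in NT and at 316, 354, 315 and 303 in Doxo+Cyta+DAC replicates 30 to 33. Doxo libraries lay at 225, 225 and 242 CPM and Doxo+Cyta libraries at 227, 249 and 227, overlapping NT. The 4 libraries with decitabine lay above all others, 1.32-fold over NT (log2 fold change 0.40, SE 0.10, edgeR adjusted p = 0.00452) and 1.37-fold over Doxo+Cyta (adjusted p = 0.000433). Without NT replicate 2 the adjusted p against NT was 0.0675.

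HDAC3 (chromosome 5, 141620876 to 141636856, −), the catalytic subunit of the NCoR and SMRT corepressors, was at 166.5 and 147 CPM in NT, and its means were 149 ± 4.02 in Doxo (n = 3), 181 ± 17.5 in Doxo+Cyta (n = 3) and 180.1 ± 9.15 in Doxo+Cyta+DAC (n = 4). Relative to NT none of its differences passed, the one with decitabine being 0.20 ± 0.11 (adjusted p = 0.133). It passed in Doxo+Cyta+DAC relative to Doxo (0.28 ± 0.09, edgeR adjusted p = 0.0201), a call lost under upper-quartile scaling and without Doxo replicate 5, Doxo replicate 6 or Doxo+Cyta+DAC replicate 30. HDAC8 (chromosome X, 72329516 to 72573103, −), which works outside those complexes on substrates such as cohesin, lay between 14.3 and 20.5 CPM in all libraries. Its log2 difference between Doxo+Cyta+DAC and NT was −0.01, with an approximate 95% interval of −0.27 to 0.26.

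Class IIa split 3 ways. HDAC5 (chromosome 17, 44076753 to 44123646, −) was at 129.2 and 122 CPM in NT. It was at 129.6, 209 and 210.0 CPM in Doxo replicates 4, 5 and 6 and at 207, 178 and 192 CPM in Doxo+Cyta replicates 19, 20 and 22. With decitabine, replicates 30 to 33, it was at 49.0, 51.0, 45.3 and 49.3 CPM. The libraries with decitabine thus lay far below all the rest, and Doxo replicate 4 sat at the NT level apart from its group-mates. HDAC5 fell by 1.37 on the log2 scale relative to NT (SE 0.16, edgeR adjusted p = 1.78e-05), and was 3.96-fold lower than in Doxo+Cyta (−1.98 ± 0.14, adjusted p = 1.61e-07). Among the 9 tested genes these were the largest differences in their comparisons.

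HDAC5 was not called in Doxo or Doxo+Cyta relative to NT, at 0.55 ± 0.17 (edgeR adjusted p = 0.0570) and 0.62 ± 0.17 (0.0817), although no library of either group fell below NT's highest. Without Doxo replicate 4 the values were 0.71 (0.00136) and 0.60 (0.00889), and DESeq2 called both. The Doxo value was 0.41 without Doxo replicate 5 (0.227) or Doxo replicate 6 (0.220). With only Doxo and NT fitted it was 0.54 (0.117). Without NT replicate 1 it was 0.59, and without NT replicate 2 it was 0.50.

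HDAC7 (chromosome 12, 47782711 to 47819980, −), known for its part in lymphoid and endothelial cells, was at 218 and 208 CPM in NT. It was at 155, 141 and 148 CPM in Doxo replicates 4 to 6, at 186, 212 and 188 in Doxo+Cyta, and at 109.9, 104, 119 and 98.4 in Doxo+Cyta+DAC. The Doxo and the decitabine libraries lay below NT without overlap, and the Doxo+Cyta libraries overlapped NT. HDAC7 fell by 0.52 in Doxo (SE 0.11, edgeR adjusted p = 0.0115) and by 0.98 in Doxo+Cyta+DAC (SE 0.10, adjusted p = 9.48e-06), both log2 against NT. Its higher level in Doxo+Cyta than in Doxo, 0.40 ± 0.10, passed narrowly (edgeR adjusted p = 0.0445), and every 1 of the 12 libraries but Doxo replicate 4 ended that call when left out, as did dropping the filter on low counts or fitting only those groups. The call in Doxo against NT was lost without either NT library (adjusted p = 0.0868 and 0.134). About 1% of the HDAC7 exon bases lie in exons of SLC48A1 too.

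HDAC4 (chromosome 2, 239048168 to 239400949, −), best known from bone and muscle, was at 20.2 and 22.0 CPM in NT and at 22.1 to 33.3 CPM in the relapses. All 10 relapse libraries lay above both NT libraries, but Doxo+Cyta+DAC replicate 31, at 22.1 CPM, was level with NT replicate 2, at 22.0. No comparison passed, with 0.51 ± 0.17 in Doxo (edgeR adjusted p = 0.0716), 0.43 ± 0.17 after both cytotoxic drugs (0.178) and 0.41 ± 0.16 with decitabine added (0.0501). The first passed with DESeq2 (0.0443), in the fit of only those groups (0.0455), without Doxo+Cyta replicate 20 (0.0480), without Doxo+Cyta+DAC replicate 31 (0.0454) and without both libraries that stood apart (0.0487). The last passed under the same 5 alternatives, with adjusted p of 0.0137 to 0.0498. HDAC4 and HDAC9 stood at like levels per kilobase in NT, 2.35 ± 0.148 and 2.74 ± 0.373 CPM per kilobase of exon.

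HDAC6 of class IIb and HDAC11 of class IV fell with decitabine. HDAC6 (chromosome X, 48802080 to 48824970, +) was at 114 and 118 CPM in NT, and at 59.8, 60.5, 61.8 and 65.0 in Doxo+Cyta+DAC replicates 30 to 33. Doxo libraries lay at 108 to 125 CPM and Doxo+Cyta libraries at 117 to 132, overlapping NT. The fall relative to NT was 0.91 on the log2 scale (SE 0.10, edgeR adjusted p = 1.26e-05), and relative to Doxo+Cyta the level was 2.02-fold lower (adjusted p = 6.84e-07). HDAC11 (chromosome 3, 13480215 to 13506424, +), a small enzyme that removes fatty acyl groups from lysines, was rarer, with 82 and 99 counts in NT and 27 to 42 in the libraries with decitabine. Those counts equal 4.88 and 5.09 CPM and 1.96 to 2.48 CPM, the Doxo libraries lay at 3.56 to 4.42, below NT, and the Doxo+Cyta libraries reached up to 5.26, overlapping NT. The Doxo difference was not called (adjusted p = 0.289). HDAC11 fell by 1.18 relative to NT (SE 0.20, edgeR adjusted p = 0.000298) and by 1.06 relative to Doxo+Cyta (SE 0.18, adjusted p = 0.000188), both log2. HDAC10, the other class IIb gene and no member here, was at 44.9 ± 0.464 CPM in NT and 36.8 ± 4.69 with decitabine (−0.29 ± 0.17, adjusted p = 0.190), and was called lower relative to Doxo+Cyta (−0.46 ± 0.15, adjusted p = 0.0194).

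**Figure D3:**
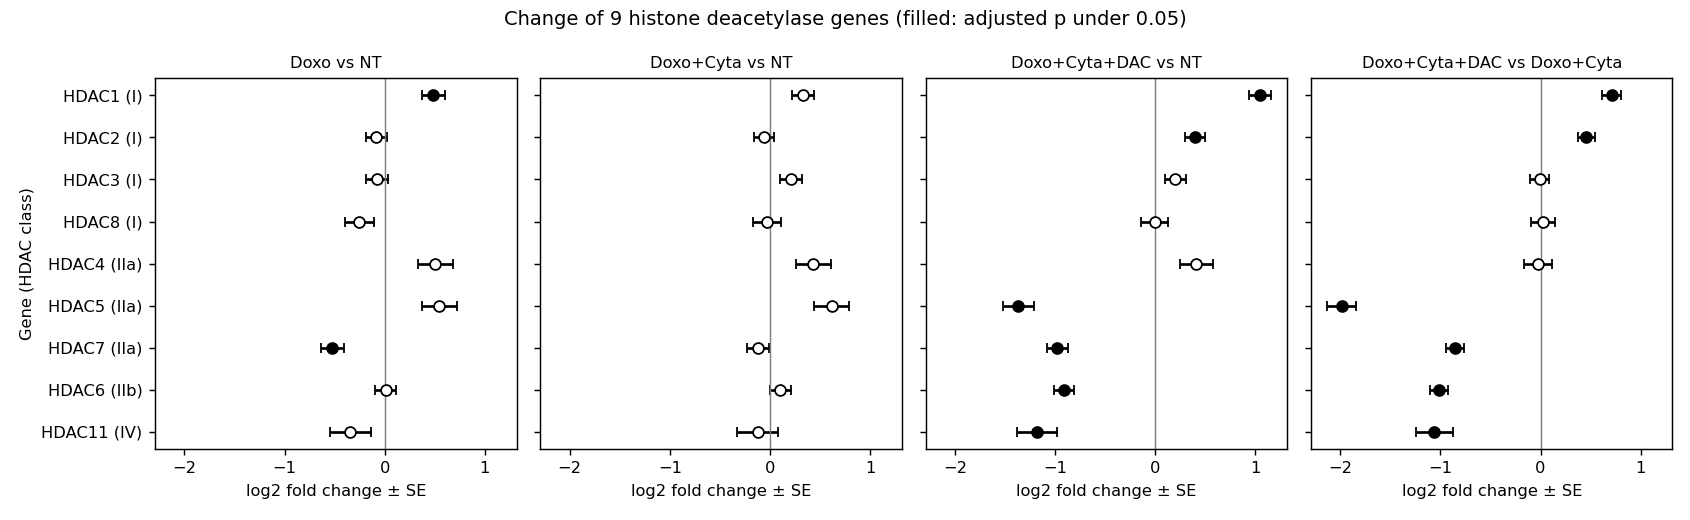
Log2 fold change with its SE for the 9 tested histone deacetylase genes in 4 comparisons (panels, x axis in log2 units), filled where the edgeR adjusted p was under 0.05. Doxo+Cyta+DAC relative to NT and to Doxo+Cyta fill the same 6 genes, HDAC1 and HDAC2 to the right and HDAC5, HDAC6, HDAC7 and HDAC11 to the left, while the panel of Doxo+Cyta relative to NT has none filled.

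Counted together, 2 of the 9 genes passed in Doxo relative to NT, 1 in each direction, beside 10.7% of all tested genes (6.06% higher and 4.63% lower). In Doxo+Cyta relative to NT none passed in edgeR, beside 1.46%, although HDAC1, HDAC4 and HDAC5 had an unadjusted p under 0.05 and DESeq2 called 1. In Doxo+Cyta+DAC relative to NT 6 passed, 2 higher and 4 lower, beside 48.7% of all tested genes (24.9% higher and 23.7% lower), so a share of this size stands near the background. With decitabine relative to Doxo 7 passed, beside 59.5% of all tested genes, 3 of them higher (29.1%) and 4 lower (30.4%). With decitabine relative to Doxo+Cyta 6 passed, beside 60.3%, 2 higher (29.8%) and 4 lower (30.5%). In Doxo+Cyta relative to Doxo 1 passed, upward, beside 3.4% in all and 1.07% higher. The 3 comparisons with decitabine share its 4 libraries, and those with NT share the 2 NT libraries. Libraries did not overlap for 6, 4 and 8 of the 9 genes in Doxo, Doxo+Cyta and Doxo+Cyta+DAC against NT, where 49%, 40.6% and 67.1% of all tested genes did not. They did not overlap for 8 and 6 genes in Doxo+Cyta+DAC against Doxo and against Doxo+Cyta (60% and 57.2%), and for 4 in Doxo+Cyta against Doxo (21%). The median log2 fold change of the 9 genes was −0.08, 0.10 and −0.01 in Doxo, Doxo+Cyta and Doxo+Cyta+DAC relative to NT, and that of all tested genes 0.01, 0.01 and 0.02. Without Doxo replicate 4 and Doxo+Cyta replicate 20 together, 4 of the 9 were called in Doxo relative to NT and 1 in Doxo+Cyta. Leaving out NT replicate 1 or 2 left none called in Doxo relative to NT, leaving out Doxo replicate 5 or 6 left 1, and leaving out Doxo+Cyta replicate 20 gave 4. In Doxo+Cyta relative to NT, 1 was called without Doxo replicate 4. Shares of all tested genes were counted in the main fit only, so these counts under alternatives have none beside them. The part of erythroid and megakaryocyte gene levels in these differences was not tested. The summed level of the megakaryocyte genes, though not of each gene, was lowest with decitabine.

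Between genes, levels were compared per kilobase of counted exon. In NT the order was HDAC3 (80.6 ± 7.10 CPM per kilobase), HDAC1 (62.7 ± 0.925), HDAC7 (49.4 ± 1.67), HDAC2 (35.3 ± 1.51), HDAC6 (28.3 ± 0.678) and HDAC5 (23.6 ± 0.986), followed at a distance by HDAC8 (5.24 ± 0.145), HDAC9, HDAC4 and HDAC11 (1.65 ± 0.0489), all SD with n = 2. HDAC9 and HDAC4 were the one neighbouring pair whose difference was within the sum of their SDs. In Doxo, HDAC1 led (87.8 ± 4.12, n = 3), and HDAC7, HDAC5 and HDAC2 at 34.4 ± 1.69, 34.4 ± 8.69 and 33.3 ± 1.40 could not be ordered beyond their spread. In Doxo+Cyta, HDAC3 led again (93.2 ± 8.99, n = 3) over HDAC1 (78.9 ± 2.80), and HDAC5 (36.1 ± 2.71) and HDAC2 (33.9 ± 1.79) were within their spread. In Doxo+Cyta+DAC, HDAC1 led at 129 ± 12.5 (n = 4), HDAC3 followed at 92.6 ± 4.71 and HDAC2 at 46.5 ± 3.18, ahead of HDAC7 at 25.1 ± 2.04, HDAC6 at 15.1 ± 0.563 and HDAC5 at 9.13 ± 0.449. HDAC9 was eighth among the 10 in NT and last in every relapse group.

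Summed over the 10 genes the level spanned 284 to 299.5 CPM per kilobase in NT, 299 to 310.4 in Doxo, 319.8 to 342 in Doxo+Cyta and 312 to 346 in Doxo+Cyta+DAC. The sums of Doxo+Cyta and of Doxo+Cyta+DAC lay above both NT sums. Class I supplied 63.0% ± 0.867 in NT (SD, n = 2), 66.5% ± 2.55 in Doxo (n = 3), 64.4% ± 1.76 in Doxo+Cyta (n = 3) and 83.7% ± 0.763 in Doxo+Cyta+DAC (n = 4). Class IIa supplied 26.8% ± 0.268, 23.7% ± 1.99, 25.9% ± 0.806 and 11.4% ± 0.640. With decitabine the class I share of each library, 82.9% to 84.6%, was above that of all other libraries, and the class IIa share below. HDAC9 had little weight in this, since class IIa without it supplied 25.8% in NT and 11.4% with decitabine. These shares follow from the member levels above and are given as a description.

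**Figure D4:**
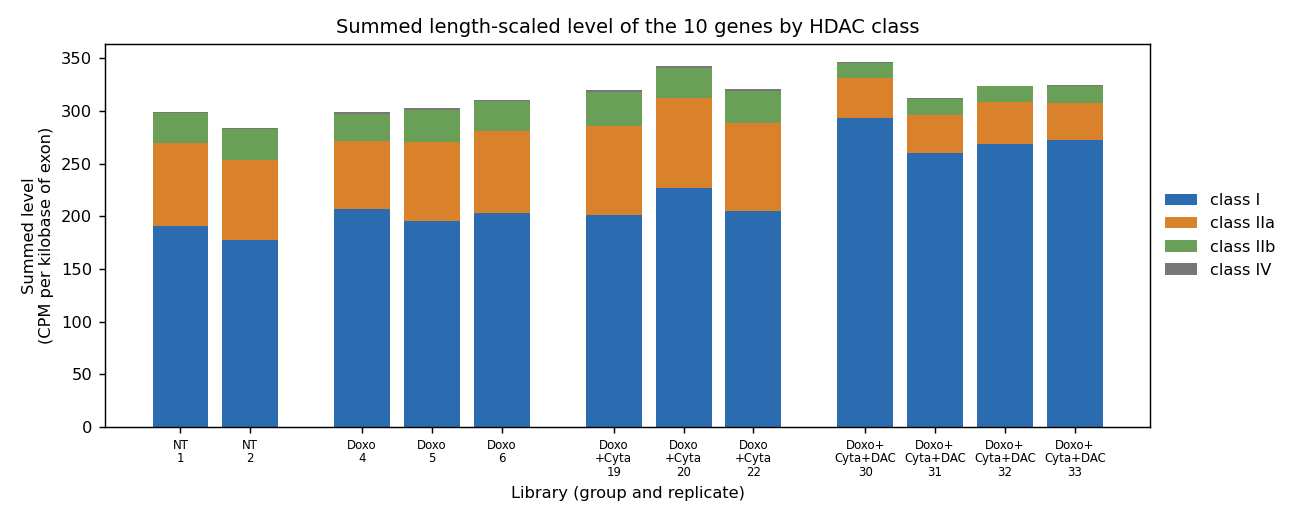
Summed CPM per kilobase of exon of the 10 genes in each library, stacked by class, with libraries by group and replicate on the x axis. The bars of Doxo+Cyta+DAC are 82.9% to 84.6% class I, while their totals of 312 to 346 overlap those of Doxo+Cyta.

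The partners of these enzymes were followed in 4 lists. Among 42 subunits of the deacetylase complexes and corepressors, all tested, 13 rose and 10 fell in Doxo+Cyta+DAC relative to NT, 54.8% in all beside 48.7% of tested genes, with a median log2 fold change of −0.01. With NT replicate 1 or 2 left out, 14 or 15 were called. GATAD2A, a scaffold of NuRD, rose from 127 ± 4.65 to 294 ± 21.5 CPM (log2 fold change 1.21, SE 0.10), and BRMS1L and BRMS1, subunits of Sin3 complexes, rose by 0.95 and 0.87. PHF21A, the CoREST reader of unmethylated histone H3, fell by 1.38 (SE 0.18), as did the corepressor RCOR2 by 0.98 and TRERF1, of the MiDAC complex, by 0.94. Relative to Doxo+Cyta 14 rose and 12 fell, 61.9% in all beside 60.3% of tested genes. There SAP30, of Sin3, fell by 1.20 (SE 0.12) and MBD3, the methyl-CpG-binding-domain protein of NuRD, rose by 1.19 (SE 0.30). MBD3 varied widely in Doxo+Cyta (65.5 ± 26.5 CPM, SD, n = 3). With decitabine relative to NT it was not called (0.81 ± 0.34, edgeR adjusted p = 0.0653). In Doxo relative to NT 1 of the 42 passed, SAP18 upward (0.54 ± 0.11), and the count was 0 without NT replicate 1, NT replicate 2, Doxo replicate 5 or Doxo replicate 6, 3 without Doxo replicate 4 or Doxo+Cyta replicate 20, and 15 without Doxo replicate 4 and Doxo+Cyta replicate 20 together. None passed in Doxo+Cyta relative to NT in edgeR, and DESeq2 called 1. Of all tested genes, 10.7% were called in Doxo and 1.46% in Doxo+Cyta, both relative to NT in the main fit.

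Of 6 tested sirtuins, the NAD-dependent deacetylases, SIRT1 rose and SIRT3 and SIRT5 fell in Doxo+Cyta+DAC relative to NT. That was 50% of them, beside 48.7% of all tested genes. SIRT1, a nuclear enzyme, went from 16.7 ± 0.83 to 32.3 ± 3.38 CPM (0.95 ± 0.17), and the mitochondrial SIRT5 from 14.0 ± 0.197 to 8.31 ± 1.97 (−0.75 ± 0.20). SIRT1 was also called in Doxo relative to NT (0.77 ± 0.18) and SIRT5 fell there (−0.86 ± 0.21), and neither held without NT replicate 1, NT replicate 2, Doxo replicate 5 or Doxo replicate 6. These 2 were 33.3% of the tested sirtuins, beside 10.7% of all tested genes. Without Doxo replicate 4 the count of called sirtuins there was 4. Relative to Doxo+Cyta, SIRT2, a cytoplasmic tubulin deacetylase, fell by 0.78 and SIRT6 by 0.33 with decitabine, while SIRT1 rose by 0.94. These 3 were 50% of the tested sirtuins, beside 60.3% of all tested genes.

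Of 18 lysine acetyltransferases, which oppose the deacetylases, 5 rose and 4 fell in Doxo+Cyta+DAC relative to NT, 50% in all beside 48.7% of tested genes, with a median of −0.14. Without NT replicate 1, 4 were called. HAT1, which acetylates new histone H4, rose from 66.2 ± 1.86 to 133 ± 5.32 CPM (1.01 ± 0.12), and the paralogs EP300 and CREBBP, broad coactivators, rose by 0.96 and 0.79. KAT8, which acetylates lysine 16 of histone H4, fell by 0.69, as did NCOA3 by 0.69 and KAT2B, also called PCAF, by 0.65. Relative to Doxo+Cyta 4 rose and 6 fell, 55.6% in all beside 60.3% of tested genes, with EP300 (1.37 ± 0.18) and ATF2 (−0.55 ± 0.21) among them. Without Doxo+Cyta replicate 19, 5 were called. Calls in Doxo relative to NT made up 11.1% of the 18, beside 10.7% of all tested genes. In Doxo relative to NT, GTF3C4 rose (0.79 ± 0.15) and KAT2A fell (−0.60 ± 0.16), while the count was 0 without NT replicate 1 or 2, 1 without Doxo replicate 5 or 6, 4 without Doxo+Cyta replicate 20 and 10 without both libraries that stood apart.

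Among 21 tested partners of class IIa enzymes, that is MEF2 factors, 14-3-3 proteins and the kinases that send the enzymes out of the nucleus, 9 rose and 3 fell in Doxo+Cyta+DAC relative to NT, 57.1% in all beside 48.7% of tested genes, with a median of 0.23. CAMK4, a calcium-dependent kinase, rose from 1.90 ± 0.00188 to 6.31 ± 0.394 CPM (1.72 ± 0.26), and CAMK4 was the sole gene of the 4 lists called in Doxo+Cyta relative to NT (1.40 ± 0.27, edgeR adjusted p = 0.0319), a call lost when only those groups were fitted or when NT replicate 1, NT replicate 2, Doxo+Cyta replicate 19 or Doxo+Cyta replicate 22 was left out. It also rose in Doxo (1.67 ± 0.27, adjusted p = 0.00355). In Doxo relative to NT 4 of the 21 passed, beside 10.7% of tested genes, and 0 without NT replicate 1, 1 without NT replicate 2 and 7 without both libraries that stood apart. Of the 14-3-3 genes, YWHAB rose by 0.94 and YWHAG by 0.77 with decitabine relative to NT. The salt-inducible kinase genes SIK1 and SIK2 fell by 1.27 and 0.94, and SIK3 rose by 0.69. Of the MEF2 genes, MEF2C rose with decitabine (0.49 ± 0.13 relative to NT, edgeR adjusted p = 0.00802), MEF2D rose in Doxo (0.83 ± 0.13, adjusted p = 0.00267) and MEF2A passed in no comparison. MEF2D was lower with decitabine than in Doxo+Cyta (−0.42 ± 0.10, adjusted p = 0.00315).

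**Figure D5:**
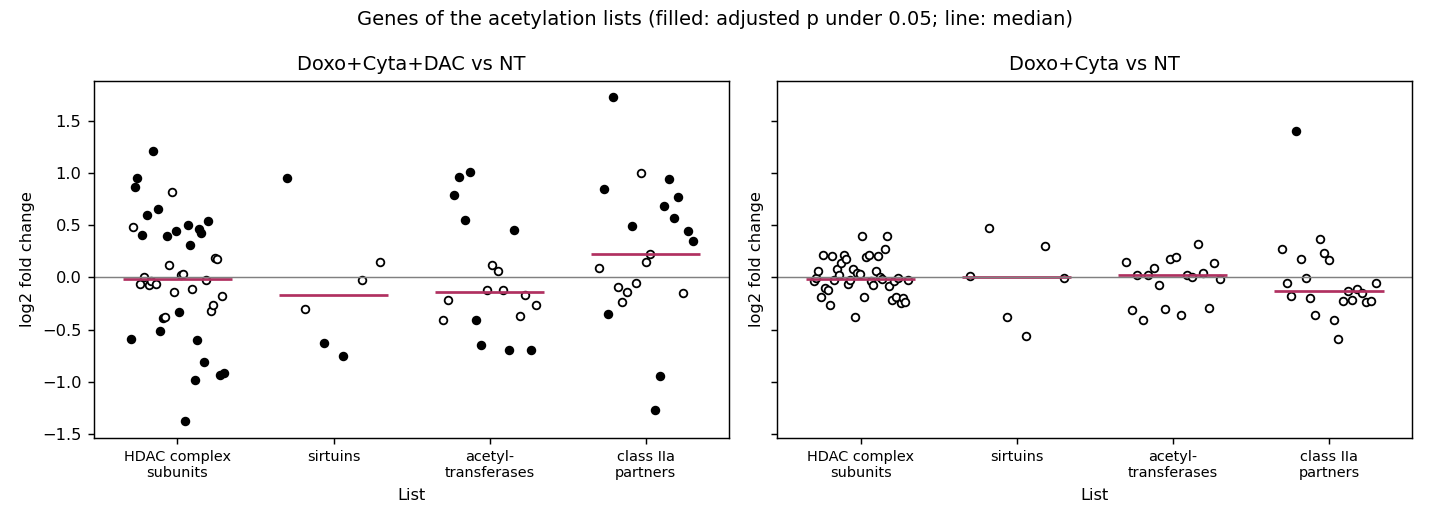
Log2 fold change of each tested gene of the 4 lists (x axis) for Doxo+Cyta+DAC relative to NT, left, and Doxo+Cyta relative to NT, right, filled where the edgeR adjusted p was under 0.05, with the list median as a line. In the first panel filled points lie on both sides of 0 in every list, and in the second CAMK4 alone is filled.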

How the data were processed

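RNA-seq libraries of HEL cells (TruSeq, paired-end, HiSeq2000) were processed by the authors, who filtered the reads, aligned them to GRCh38 with Bowtie2 2.2.8, which does not splice reads over exon junctions, and counted fragments per gene with featureCounts 1.6.0 without strand. The deposited values are those raw counts, not normalized. Junction reads and reads shared between genes could therefore go uncounted, which can lower counts of genes with many short exons. Levels per kilobase compared between genes with unlike exons carry the same limit. Of 26485 genes, 4 lacked a count and were left out.

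Counts were tested with edgeR 4.0.16 in R 4.3.3: filterByExpr (14164 genes), TMM scaling and 1 quasi-likelihood fit of all 12 libraries, two-sided, with Benjamini-Hochberg adjustment over the tested genes of each of 6 comparisons and a call at an adjusted p under 0.05. The SE was the log2 fold change over the root of F, and the approximate 95% interval the change ± 1.96 SE. Fold changes are per gene, from the fit, and levels are TMM-scaled CPM. Levels per kilobase used the deposited exon length. Log2 CPM used a prior count of 2. The fit was tested on simulated counts with known changes. Samples were grouped from their labels. Some marker and ranking results are not reported here. The series speaks of 3 untreated replicates, and 2 are labelled.

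The members and lists were chosen with earlier results of these data known. Named genes are all members, up to 3 genes per direction and list with the largest change among those called, averaging 1 CPM or more in whichever group was higher, in both comparisons of Doxo+Cyta+DAC with NT and with Doxo+Cyta, the tested neighbours of HDAC9 and the 5 genes most like it. Genes of the lists called in other comparisons, and the MEF2 genes, YWHAG and SIK3, were named after their values were seen. Alternatives were RLE and upper-quartile scaling, DESeq2 1.42.0, no filter, only the groups compared and leaving out each replicate, and, added after seeing the data, leaving out both libraries that stood apart. Python 3.11.15, numpy 2.4.6, pandas 2.3.3 and matplotlib 3.10.9 made the tables and figures.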

Additional observations from a re-analysis of the deposited data

Results flagged for a closer look

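In Doxo+Cyta+DAC, the group with 4 libraries, the highest library lay far from the others for 2 of the 10 genes. For HDAC3, replicate 30 (194 CPM) stood off from the other 3 (174 to 177 CPM), with a gap of 0.8405 of the group's range. For HDAC9, replicate 32 held 3 counts and the others none, so the gap was 1 of the range, as it would be for any single count, and it measures no distance; 3 counts is the lowest level taken as shown. The HDAC3 gap exceeds the 95% critical value of Dixon's test for 4 libraries, which chance passes in about 1 of 20 groups.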

How the results depend on the processing

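No paired analysis was possible because the groups share no replicate number. With NT replicate 1 or 2 left out, the lone NT library is assumed to vary like the other groups. The mean level of HDAC9 rested on single libraries in 2 relapse groups, falling to 0.0582 CPM in Doxo without replicate 6 and to 0.395 CPM in Doxo+Cyta without replicate 22. In the 3 comparisons with decitabine the count of called members stayed within 1.5 times under each alternative. In Doxo relative to NT the count of 2 became 4 with DESeq2 and 4 without both libraries that stood apart, and ranged from 0 to 4 when 1 library was left out. In Doxo+Cyta relative to NT the count of 0 became 1 with DESeq2 and 1 without both libraries, and ranged from 0 to 1. In Doxo+Cyta relative to Doxo the count of 1 became 0 with no filter and 0 with only those groups fitted, and ranged from 0 to 1. The cause was not tested, and the share of all tested genes called was counted in the main fit only. Scaling moved the median of all genes by less than 0.1 (log2), and under upper-quartile scaling 45.2% of calls in Doxo+Cyta relative to Doxo were upward in place of 31.6%.

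Of the members' log2 fold changes under alternatives, 899 kept direction and call, 18 gained a call, 24 lost one and 31 turned sign, all of the last uncalled and near 0. HDAC6 in Doxo relative to NT turned to −0.0032 with DESeq2, −0.0048 with RLE scaling, −0.045 without a filter and −0.039 with upper-quartile scaling. HDAC8 with decitabine relative to Doxo+Cyta turned to −0.068 with upper-quartile scaling. Without both libraries that stood apart, HDAC2, HDAC4 and HDAC5 in Doxo+Cyta relative to Doxo turned to −0.026, 0.073 and −0.064, and HDAC3 with decitabine relative to Doxo+Cyta to 0.068. With 1 library left out, the values that turned ranged, relative to NT, from −0.16 to 0.014 for HDAC3 and −0.069 to 0.032 for HDAC6 in Doxo and from −0.039 to 0.038 for HDAC8 with decitabine. In Doxo+Cyta relative to Doxo they ranged from −0.014 to 0.067 for HDAC2, −0.19 to 0.021 for HDAC4 and −0.11 to 0.19 for HDAC5. With decitabine, HDAC4 ranged from −0.16 to 0.0039 relative to Doxo, and relative to Doxo+Cyta HDAC3 ranged from −0.071 to 0.069, HDAC4 from −0.11 to 0.096 and HDAC8 from −0.027 to 0.092. HDAC9, at 27 counts or fewer in every relapse library, is limited by depth there.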
